A study of Mus musculus with 3 samples.

Results

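The enzyme gene Hsd11b2 and 6 genes of glucocorticoid action, namely Hsd11b1, Nr3c1, Nr3c2, Fkbp5, Tsc22d3 and Per1, were followed in endothelial cells made from mouse embryonic stem cells. These 7 genes are a named set among 23397 genes with a value. Hsd11b2 was chosen by its measured FPKM, which is high in SclKO cells, so its differences from the other libraries describe that choice and carry no test. The other 6 were listed with it as activating enzyme, receptors and targets of the same hormones. The groups were SclKO (knockout of Scl, current symbol Tal1), Gata12KO (labelled as a knockout of both Gata1 and Gata2) and WT (wild type), with 1 library each and 3 libraries in all. All 3 came from stem cells grown into embryoid bodies, floating aggregates in serum-containing medium, and sorted at day 4.75 as Tie2+CD31+CD41- cells. The sources used here do not say whether each knockout line is 1 clone or whether it shares a parental line with WT.

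Glucocorticoids act through a receptor in the cytoplasm, encoded by Nr3c1, which moves to the nucleus on binding hormone and changes transcription of its targets. Access to that receptor is set inside the cell by a pair of enzymes that work in opposite directions: Hsd11b2 oxidises active corticosterone to an inert 11-keto form, and Hsd11b1 turns that form back into active hormone. Hsd11b2 is best known from kidney, where it keeps glucocorticoids off the mineralocorticoid receptor (Nr3c2), and from placenta, where it limits passage of maternal hormone. Fkbp5, Tsc22d3 and Per1 are widely used as readouts of the receptor because hormone raises their transcripts in many cell types.

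Levels are given in FPKM, a fragment count scaled by transcript length and by library depth, which lets genes be compared with each other. Each comes with a deposited lower and upper bound. For Hsd11b2, Nr3c1, Nr3c2 and Fkbp5, which have 1 entry each, the bounds hold counting error only. For entries that share their locus with others, as those of Tsc22d3 do, some are wider than that. No bound holds any spread between samples. The depth that these bounds imply was 28.3 M (mega) fragments in SclKO, 50.3 M in the library labelled Gata12KO and 31.6 M in WT. With 1 library per group no p-value is given, and every difference describes these libraries only. A gene is called higher or lower where it has at least 1 FPKM in any library, a ratio of at least 2-fold on the scale log2(FPKM + 1), and bounds that do not overlap. The rule could apply to 11080 genes. Of these, 2.12% were higher and 4.24% lower in SclKO against WT. With the library labelled Gata12KO set against WT, 0.767% passed upward and 3.75% downward, and with it set against SclKO, 3.38% and 3.75%.

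Tal1 had 1.59 FPKM in SclKO, 38.7 in the library labelled Gata12KO and 51.0 in WT. Gata1 was listed at 0 in SclKO, with 5.66 FPKM in the library labelled Gata12KO and 4.64 in WT, and Gata2 had 5.81, 44.9 and 12.05 FPKM in the same order. Neither Gata gene was below WT in the library labelled Gata12KO. FPKM over a whole transcript cannot show whether an allele is disrupted, so the label could not be checked from these levels. The library is named by its label throughout. Transcripts of all 12 endothelial markers examined were at or above 2.09 FPKM in each library, with the junction gene Cdh5 at 42.9 FPKM in SclKO, 141 in the library labelled Gata12KO and 116 in WT.

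Of the 7 genes, 5 had at least 1 FPKM in some library (Hsd11b2, Nr3c1, Fkbp5, Tsc22d3 and Per1), and Hsd11b1 and Nr3c2 did not. SclKO against WT had 1 of these 5 called higher, Hsd11b2, and 0 lower, beside 2.12% and 4.24% of all expressed genes. For the library labelled Gata12KO, 0 of 5 were called against WT (0.767% and 3.75% of all), and 1 of 5, again Hsd11b2, was lower against SclKO (3.75% of all). Without the 2-fold limit, bounds were separate for 2 of 5 in SclKO against WT, both higher, where 58% of expressed genes had separate bounds and 26.3% were higher. The corresponding numbers were 4 of 5, with 3 higher, in the library labelled Gata12KO against WT (61.8% and 24.2% of all), and 3 of 5, with 1 higher, against SclKO (58.3% and 24.8% of all). Separate bounds alone are therefore not counted as a call. The median log2 ratio of the 5 was 0.18 in SclKO against WT, beside -0.035 over all expressed genes, and 0.29 beside -0.08 in the library labelled Gata12KO against WT. Hsd11b2, chosen by its level in SclKO, is 1 of the 5, so these counts and medians partly describe that choice. In SclKO against WT the other 4 were not called, with log2 ratios of -0.11 (Nr3c1), 0.66 (Fkbp5), 0.18 (Tsc22d3) and -0.12 (Per1). Both comparisons share the WT library, and the comparison of the library labelled Gata12KO with SclKO shares a library with each.

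**Figure D1:**
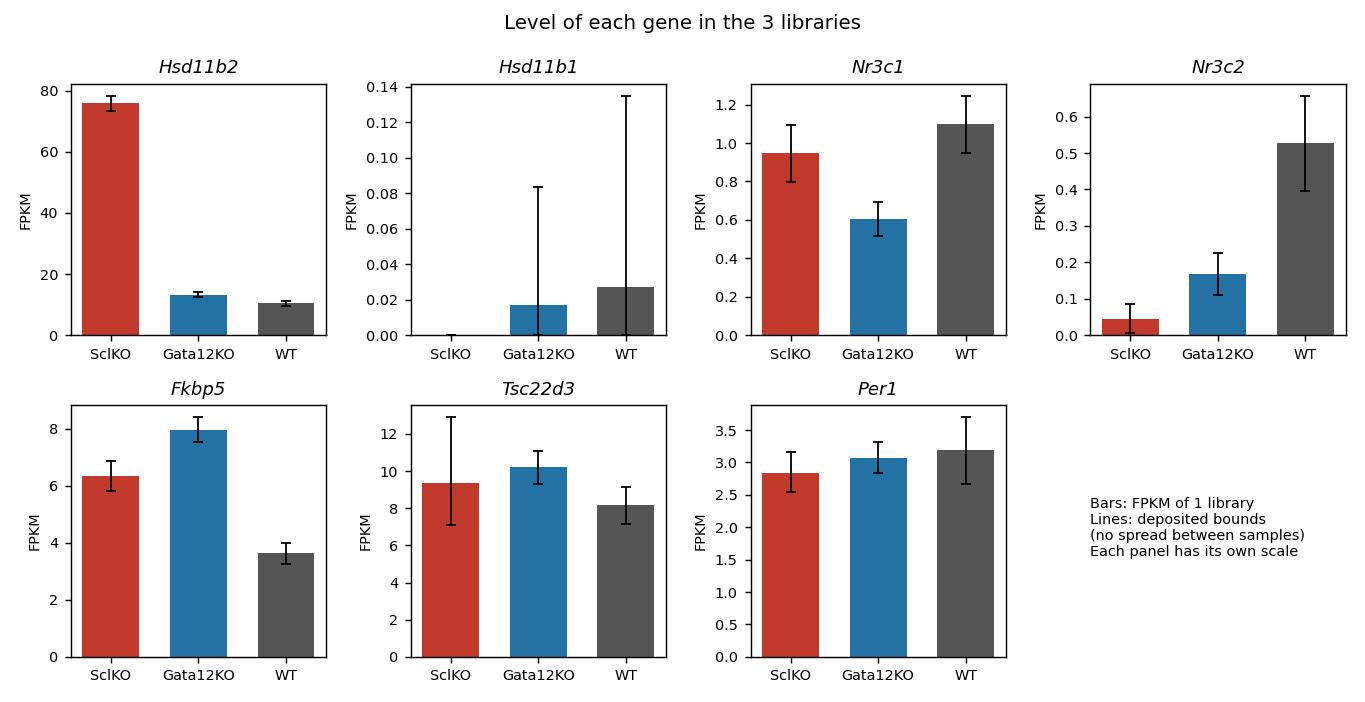
FPKM of each of the 7 genes (bars, linear axes that differ between panels) in SclKO, the library labelled Gata12KO and WT, with the deposited bounds as lines. Hsd11b2 stands at 75.9 FPKM in SclKO against 13.3 and 10.4 in the other libraries, Nr3c2 is lowest in SclKO and highest in WT, and Fkbp5 is lowest in WT.

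Of the enzymes, Hsd11b2 spans chr8:108042646-108047888 (mm9, plus strand) as 1 entry of 5 exons and 1849 nt. It had 75.9 FPKM in SclKO (bounds 73.3 to 78.4), 13.3 in the library labelled Gata12KO (12.5 to 14.1) and 10.4 in WT (9.51 to 11.3). The implied reads behind these values were 3542, 1124 and 547. SclKO stood alone at the top, and the other libraries had lower levels with bounds that did not overlap. The library labelled Gata12KO was 1.28-fold WT, or 0.32 on the log2 scale, which became 0.99 as TPM (each library rescaled to an equal sum) and was not called under any of the 8 alternatives. The SclKO level was 7.29-fold that of WT, and the bounds allow 6.49-fold to 8.24-fold. In SclKO 94.2% of expressed genes had a lower level than Hsd11b2, against 67.0% in the library labelled Gata12KO and 57.9% in WT. On the log2(FPKM + 1) scale its ratio to WT was 2.75 in SclKO, with 20 of 11080 genes above it, and 0.32 in the library labelled Gata12KO, with 1643 above it. Between the knockouts, the library labelled Gata12KO had 0.175 times the SclKO level, a log2 ratio of -2.43 that only 38 expressed genes fell below.

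Hsd11b1, the opposing enzyme (chr1:195047835-195090239, mm9, minus strand), was near 0 throughout. It was listed at 0 in SclKO and had 0.0168 FPKM in the library labelled Gata12KO and 0.0272 in WT, with lower bounds of 0 in both. No fold is given for it. H6pd, which supplies the reduced cofactor that Hsd11b1 uses in the endoplasmic reticulum, had 2.19 FPKM in SclKO, 2.14 in the library labelled Gata12KO and 2.32 in WT, with bounds that overlapped in all 3 comparisons. Of the pair, only the oxidising enzyme therefore reached 1 FPKM in any of the 3 libraries.

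The receptors were both scarce. Nr3c1, the glucocorticoid receptor (chr18:39570199-39646899, mm9, minus strand), had 0.946 FPKM in SclKO (bounds 0.798 to 1.09), 0.603 in the library labelled Gata12KO (0.515 to 0.691) and 1.10 in WT (0.947 to 1.25). SclKO and WT did not differ beyond their bounds, and the library labelled Gata12KO was below both, at 0.550 times WT, a size that stays short of the 2-fold limit. Its transcript of 6329 nt is the longest of the set, and 5.8% of expressed genes had a lower level in SclKO, 2.9% in the library labelled Gata12KO and 6.0% in WT. Nr3c2, the mineralocorticoid receptor (chr8:79426407-79767538, mm9, plus strand), had 0.0455 FPKM in SclKO (0.0048 to 0.0861), 0.167 in the library labelled Gata12KO (0.109 to 0.225) and 0.527 in WT (0.396 to 0.658). Its 3 pairs of bounds were all separate, in the reverse order of Hsd11b2, and SclKO had 0.0863 times the WT level. These values rest on 5, 33 and 65 implied reads, and the gene lies below the 1 FPKM minimum everywhere, so the rule makes no call on it. Among Pgr, Esr1 and Esr2, receptors of progesterone and oestrogens, the highest value in any library was 0.0857 FPKM, for Pgr in the library labelled Gata12KO.

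Among the target genes, Fkbp5 had the largest ratios to WT in both knockout libraries. It encodes a co-chaperone that binds the receptor complex and lowers its affinity for hormone, and it is itself hormone-inducible. Fkbp5 spans chr17:28536040-28623057 (mm9, minus strand) and had 6.34 FPKM in SclKO (bounds 5.81 to 6.86), 7.97 in the library labelled Gata12KO (7.53 to 8.40) and 3.63 in WT (3.26 to 4.00). Both knockout libraries were above WT, with separate bounds in all 3 comparisons, and the order differs from that of Hsd11b2, since the library labelled Gata12KO was the highest. Relative to WT the level was 1.74-fold in SclKO and 2.19-fold in the library labelled Gata12KO (bounds allow 1.88 to 2.58). With 1 added to each value the log2 ratios were 0.66 and 0.95, both short of the limit of 1. That in the library labelled Gata12KO passed the limit with a pseudocount of 0.1 (1.11) and under median-ratio rescaling (1.03), and had 128 of 11080 expressed genes above it.

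Tsc22d3, also called Gilz, encodes a leucine zipper protein that mediates anti-inflammatory effects of the hormone. It is given as a short and a long entry (together chrX:137074068-137135061, mm9, minus strand), whose start sites lie 57337 nt apart. Summed over both it had 9.38 FPKM in SclKO (bounds 7.09 to 12.9), 10.2 in the library labelled Gata12KO (9.31 to 11.1) and 8.16 in WT (7.16 to 9.15). Only the library labelled Gata12KO and WT had separate bounds, at 1.25-fold. The short entry held 96.1%, 95.7% and 94.2% of the sum in SclKO, the library labelled Gata12KO and WT, so the short form made up nearly all of the estimate in each.

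Per1, a repressor of the circadian clock that is also a direct hormone target, had 2.84 FPKM in SclKO (bounds 2.54 to 3.16), 3.07 in the library labelled Gata12KO (2.84 to 3.31) and 3.19 in WT (2.68 to 3.70). All 3 bounds overlapped, so no order of its levels can be read. Its 2 entries (together chr11:68912458-68923459, mm9, plus strand) did not keep the same shares. They start 1202 nt apart, and the entry with the downstream start had 1.55e-05 FPKM in SclKO, 0.000293 in the library labelled Gata12KO and 1.13 in WT (0.898 to 1.36). The upstream entry had 2.84, 3.07 and 2.06 FPKM in the same order. WT was thus the library in which the downstream start took a share of the estimate, 35.4% of the gene. Both entries have 23 exons, with lengths of 4660 and 4645 nt, and the reads particular to each were not analysed here.

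To show what the alternative Per1 starts look like beside the promoter of the target that differed most, 3 promoter windows of 250 bases before to 50 after the start were taken from RefSeq on GRCm38.p6. They are written 5′ to 3′ along each gene, with E-boxes (CANNTG, the class of site that Scl and the clock factors recognise) and any receptor motif AGAACA, or its complement TGTTCT, in capitals. The Per1 windows are chr11:69098699-69098998 and chr11:69099902-69100201 on the forward strand, and their starts lie 1203 bases apart. The Fkbp5 window is chr17:28486100-28486399 on the reverse strand.
Per1 upstream start: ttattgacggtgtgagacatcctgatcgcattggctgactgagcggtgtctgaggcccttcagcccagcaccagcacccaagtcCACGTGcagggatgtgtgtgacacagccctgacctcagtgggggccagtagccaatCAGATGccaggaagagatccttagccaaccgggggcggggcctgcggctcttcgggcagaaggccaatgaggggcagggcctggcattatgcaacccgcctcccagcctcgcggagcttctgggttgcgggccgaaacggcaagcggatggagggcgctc
Per1 downstream start: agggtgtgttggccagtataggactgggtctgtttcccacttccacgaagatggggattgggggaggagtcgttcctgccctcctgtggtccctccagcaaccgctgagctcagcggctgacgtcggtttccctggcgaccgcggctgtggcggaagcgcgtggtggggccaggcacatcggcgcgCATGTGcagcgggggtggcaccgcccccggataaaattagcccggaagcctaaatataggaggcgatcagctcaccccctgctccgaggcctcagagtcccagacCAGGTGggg
Fkbp5: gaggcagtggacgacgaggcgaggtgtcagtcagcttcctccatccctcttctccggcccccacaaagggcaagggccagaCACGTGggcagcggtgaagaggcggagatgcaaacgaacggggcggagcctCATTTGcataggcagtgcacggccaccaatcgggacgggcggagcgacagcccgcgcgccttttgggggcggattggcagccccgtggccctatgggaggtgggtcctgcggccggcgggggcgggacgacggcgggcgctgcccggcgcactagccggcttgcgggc

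The table holds windows for 5 of the 7 genes, namely Per1, Fkbp5, Hsd11b1, Nr3c2 and Tsc22d3, the last with 3 windows. It has none for Hsd11b2 or Nr3c1, so these were not searched. Both strands were searched. Each of the 3 windows shown had 2 E-boxes, a motif found in 72.3% of the 32817 promoter windows of that length. The upstream Per1 window and the Fkbp5 window each hold the form CACGTG, at positions -166 and -169 from the start, which 7.15% of windows have. The downstream Per1 window holds GATAA, a core of GATA factor sites, at position -35, a motif present in 25.4% of windows. The full palindromic receptor site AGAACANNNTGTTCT was in 3 of the 32817 windows (0.00914%) and in none of those of the 5 genes. Among the windows of the 5 genes, the single motif AGAACA (19% of windows, counted also where it is part of the full site) was found at the most upstream Tsc22d3 start alone. CACGTG is itself a form of CANNTG and is counted in both. These matches are letters in short windows and say nothing of binding.

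**Figure D2:**
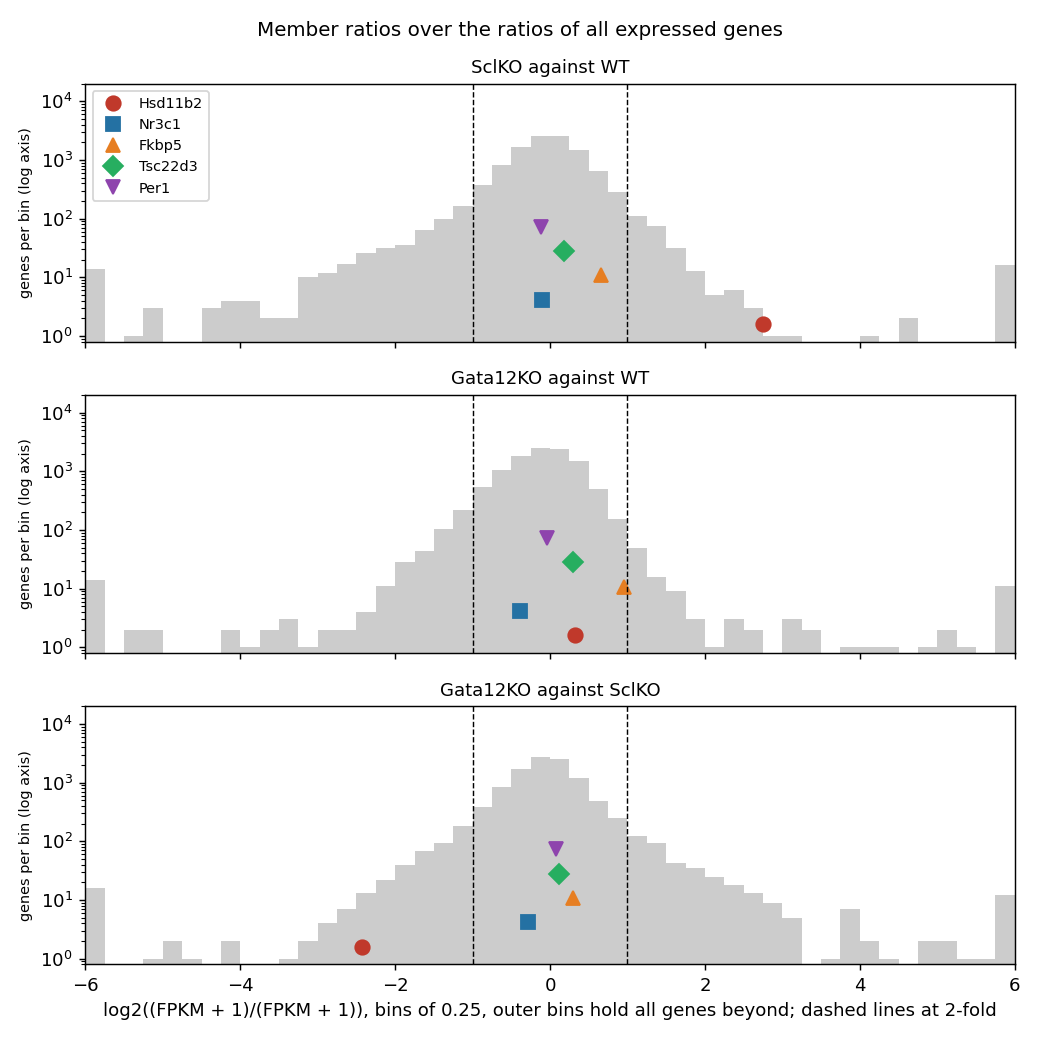
Log2 ratios of the 5 expressed members (symbols, placed at arbitrary heights) over the histogram of ratios of 11080 expressed genes (grey, log axis) in each comparison, where the outer bins hold every gene beyond them. Hsd11b2 lies outside the dashed 2-fold lines in SclKO against WT (2.75) and in the library labelled Gata12KO against SclKO (-2.43), and Fkbp5 lies just inside in the library labelled Gata12KO against WT (0.95).

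Other glucocorticoid-responsive genes were looked at as a list of 30, of which 18 were expressed. In SclKO against WT 1 was higher, 1 lower and 16 between, with a median log2 ratio of -0.035 beside -0.035 over all expressed genes. The higher one was Cdkn1c, a cyclin-dependent kinase inhibitor that is also imprinted (133 FPKM in SclKO and 61.4 in WT), a call that ended as TPM. The lower one was Cebpd, a transcription factor of acute responses (2.38 FPKM in SclKO and 10.4 in WT). Against WT, the library labelled Gata12KO had 0 of 18 called and a median of -0.05, while 3 were higher as TPM (Sgk1, Ddit4 and Errfi1), where the median of all genes was itself 0.52. The kinase gene Sgk1 had 45.5 FPKM in the library labelled Gata12KO and 27.3 in WT, and the growth inhibitor Ddit4 had 129 and 81.8, both with separate bounds and both under 2-fold. Against SclKO it had Cebpd higher (6.38 FPKM, against 2.38 in SclKO), and Cdkn1c (63.8 and 133), the metallothionein Mt2 (5.68 and 12.8) and the insulin receptor substrate Irs2 (3.79 and 8.85) were lower. The calls of Cdkn1c, Mt2 and Irs2 there lay within 0.05 of the limit on the log2 scale. Under median-ratio rescaling 0 of the list were lower in that comparison. The classical liver targets Tat, Pck1 and G6pc, all enzymes, had at most 0.027 FPKM in any library.

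The machinery around the receptor was expressed, and none of its listed genes was called. Of 16 chaperones and co-chaperones, which hold the receptor ready for hormone, 16 were expressed and 0 were called in any comparison, with medians of 0.10 in SclKO against WT and -0.19 in the library labelled Gata12KO against WT. The chaperone Hsp90ab1 had 1001 FPKM in SclKO, 886 in the library labelled Gata12KO and 927 in WT, and the co-chaperone Fkbp4, which counteracts Fkbp5 at the receptor, had 107, 72.3 and 94.6. Stip1, which links the chaperones Hsp70 and Hsp90, had the largest ratio of the list in SclKO against WT (86.4 FPKM in SclKO and 56.0 in WT, log2 0.62). Of 16 coregulators 15 were expressed and 0 were called, with medians of 0.23 in SclKO and 0.22 in the library labelled Gata12KO, both against WT. Of the mineralocorticoid targets, a list that also holds Tsc22d3, Per1 and Sgk1, 5 of 12 were expressed and 0 called, and the sodium channel subunits Scnn1a, Scnn1b and Scnn1g had at most 0.461 FPKM. Atp1b1, a sodium pump subunit, had 3.02 FPKM in SclKO, 1.35 in the library labelled Gata12KO and 1.06 in WT, a log2 ratio of 0.96 for SclKO against WT and 2.85-fold before 1 is added to each value. In that comparison it was called higher with a pseudocount of 0.1, the length trend removed, rescaling over transcripts of 300 nt or longer or a 1.5-fold limit.

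Genes that make or carry the hormone were mostly below 1 FPKM. Of 21 steroid synthesis and supply genes 6 were expressed and 0 called. Fdx1 had the largest ratio of the list in SclKO against WT, a log2 ratio of -0.84. It was called lower there with a pseudocount of 0.1 and with a 1.5-fold limit. Cyp11a1, Cyp21a1, Hsd3b6, Mc2r and Serpina6 were listed at 0 in all 3 libraries. The cholesterol carrier Star had 0.900 FPKM in SclKO, 0.595 in the library labelled Gata12KO and 0.927 in WT.

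In the Hsd17b family, related dehydrogenases of sex steroids and other substrates, 6 of 12 were expressed and 0 were called in SclKO against WT. Hsd17b2, which like Hsd11b2 inactivates a steroid, was listed at 0 in SclKO and in WT and had 0.0179 FPKM in the library labelled Gata12KO. Hsd17b10 (63.7 FPKM in the library labelled Gata12KO and 135 in WT) and Hsd17b11 (6.36 and 15.3) were lower there, calls that both ended once the length trend was removed, over transcripts of 300 nt or longer and as TPM. Of the other FKBP genes 13 of 14 were expressed. In SclKO against WT 0 were called and the median was -0.03. Against WT, the library labelled Gata12KO had Fkbp1b lower (3.06 FPKM in the library labelled Gata12KO and 9.64 in WT), a call that ended once that trend was removed and as TPM, and the median was -0.40, against the 0.95 of Fkbp5. Fkbp10 was lower in it against SclKO (10.8 FPKM, against 25.9 in SclKO), a call that ended as TPM. Of the TSC22 relatives all 3 were expressed and 0 called. Of 20 clock genes 12 were expressed, and 1, the repressor Ciart, was higher in the library labelled Gata12KO (3.12 FPKM, against 0.628 in WT), while 0 were called in SclKO.

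**Figure D3:**
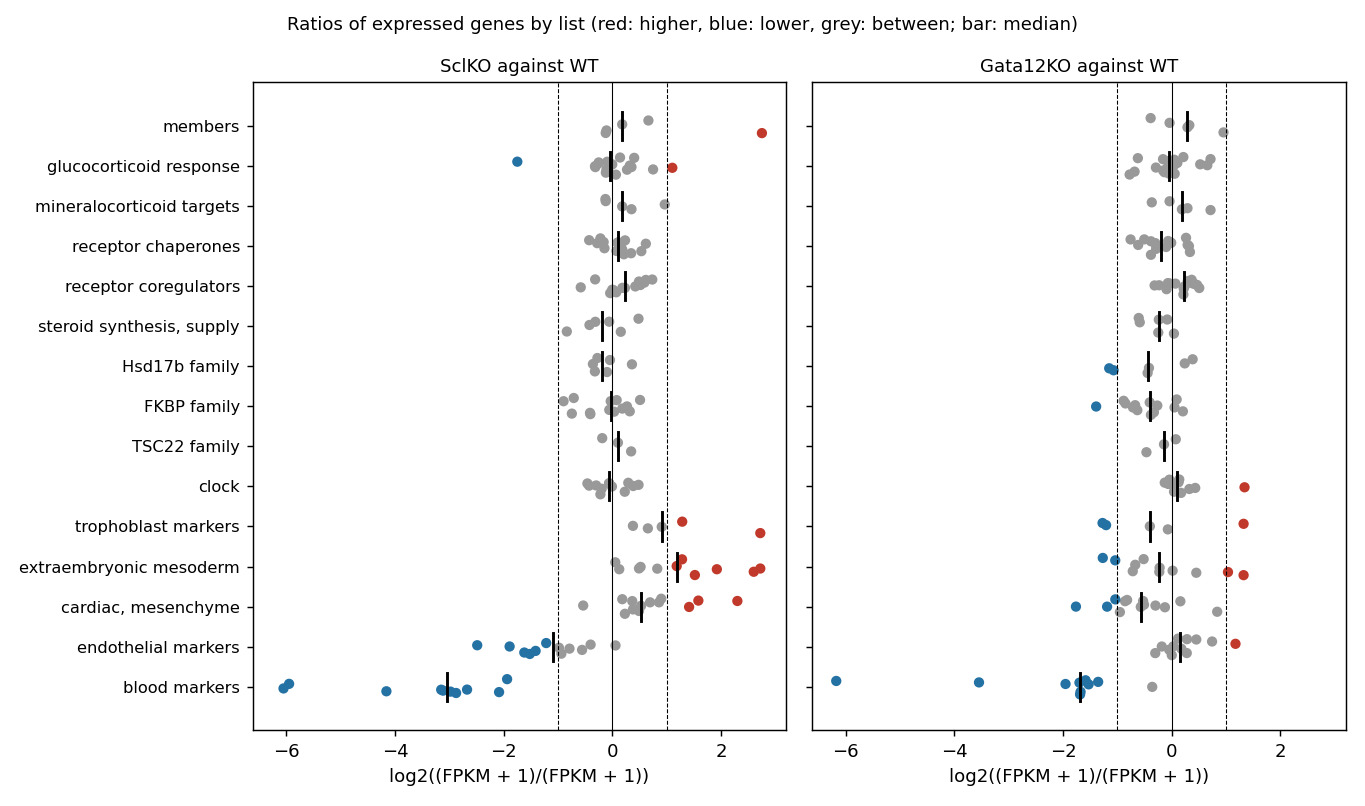
Log2 ratios of the expressed genes of each list (points, 1 per gene, spread vertically at random) in SclKO against WT and in the library labelled Gata12KO against WT, with the list median as a black bar and dashed lines at 2-fold. In SclKO 3 genes of the pathway lists pass the 2-fold lines, Hsd11b2 (2.75), Cdkn1c (1.10) and Cebpd (-1.75), with Atp1b1 (0.96) and Fkbp1b (-0.90) next. There 6 of 11 extraembryonic mesoderm markers are higher and 10 of 10 blood markers lower. In the library labelled Gata12KO 9 of 10 blood markers are lower.

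Markers of other cells were read beside Hsd11b2. Of 13 genes that mark extraembryonic mesoderm, the tissue of allantois and yolk sac, 11 were expressed and 6 were higher and 0 lower in SclKO against WT, with a median of 1.18. They were Hand1 (209 FPKM in SclKO and 72.2 in WT), Bmp4 (22.7 and 9.44), Foxf1 (9.46 and 0.722), Cdx2 (16.7 and 1.68), Tdo2 (53.3 and 21.3) and Col3a1 (8.06 and 1.39). Their list summed to 1404 FPKM in SclKO, 1075 in the library labelled Gata12KO and 1092 in WT, and Vim alone gave most of each sum. Of the 11, the library labelled Gata12KO had 2 above WT (Foxf1 and Cdx2) and 2 below it (Pitx1 and Tdo2). Both lower calls ended as TPM and with the length trend removed, and that of Pitx1 also under median-ratio rescaling. Of 18 trophoblast markers 5 were expressed and 2 were higher in SclKO against WT, Cdx2 and Gata3, with a median of 0.91. Cdx2 is in both lists. Krt8 (0.91), Peg10 (0.65) and Krt18 (0.38) also had positive log2 ratios there and were not called. The sums were 654 FPKM in SclKO, 339 in the library labelled Gata12KO and 402 in WT, mostly from Peg10. The placental genes Elf5, Gcm1, Tpbpa, Prl3d1 and Synb were listed at 0 in SclKO. Of the 18, the list had 5 at 0 in SclKO, 1 in the library labelled Gata12KO and 3 in WT. Of 10 kidney epithelium markers 0 reached 1 FPKM, with sums of 0.141 FPKM in SclKO, 1.06 in the library labelled Gata12KO and 0.866 in WT, and 8 of 10 at 0 in SclKO. In SclKO the expressed cardiac and mesenchymal markers had 3 of 13 higher (Pdgfrb, Cdh11 and Snai2), the endoderm markers 0 of 5 higher and 1 lower (Spink1, a call that ended with the length trend removed and with bounds doubled), the endothelial markers 6 of 12 lower and the blood markers 10 of 10 lower. The library labelled Gata12KO, set against WT, also had 9 of 10 blood markers lower, so their loss was not particular to SclKO. Its cardiac and mesenchymal markers had 3 of 13 lower and 0 higher, and its endothelial markers 0 of 12 lower and 1 higher (Kdr). Of its trophoblast markers 1 of 5 was higher (Cdx2) and 2 were lower (Krt8 and Krt18). The endothelial sums were 318 FPKM in SclKO, 816 in the library labelled Gata12KO and 681 in WT. The part of these cell types in the Hsd11b2 level was not tested, and in a sorted pool more cells with the transcript and more transcript per cell cannot be told apart.

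The genes most like Hsd11b2 across the 3 libraries were ranked by distance on the log2(FPKM + 1) scale after each gene's mean was subtracted, among 7391 named genes with at least 5 FPKM in some library and a transcript of 300 nt or longer, with predicted, microRNA and snoRNA genes left out. The nearest were Irx3, a homeobox factor (distance 0.41), Mmp9, a matrix metalloproteinase (0.48), Smpd3, a sphingomyelinase (0.49), Cdh11, a mesenchymal cadherin (0.59), and Col3a1, a fibrillar collagen (0.60). Irx3 had 16.9 FPKM in SclKO, 2.24 in the library labelled Gata12KO and 2.71 in WT. Mmp9 had 5.36, 0.568 and 0.503 FPKM in the same order, and Cdh11 had 25.9, 2.84 and 4.46. Smpd3 had 5.16, 0.175 and 0.402 FPKM. Irx3, Smpd3 and Cdh11 lie on chromosome 8, as Hsd11b2 does, while Mmp9 lies on chromosome 2 and Col3a1 on chromosome 1. Smpd3 is at chr8:108776448-108861888, and Hsd11b2 is at chr8:108042646-108047888. The share of the 7391 candidates that lie on chromosome 8 was not counted. Whether a shared chromosome bears on the likeness was not tested. All 5 were high in SclKO alone. With 3 libraries a pattern has only 2 free values, so likeness here says little beyond that.

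**Figure D4:**
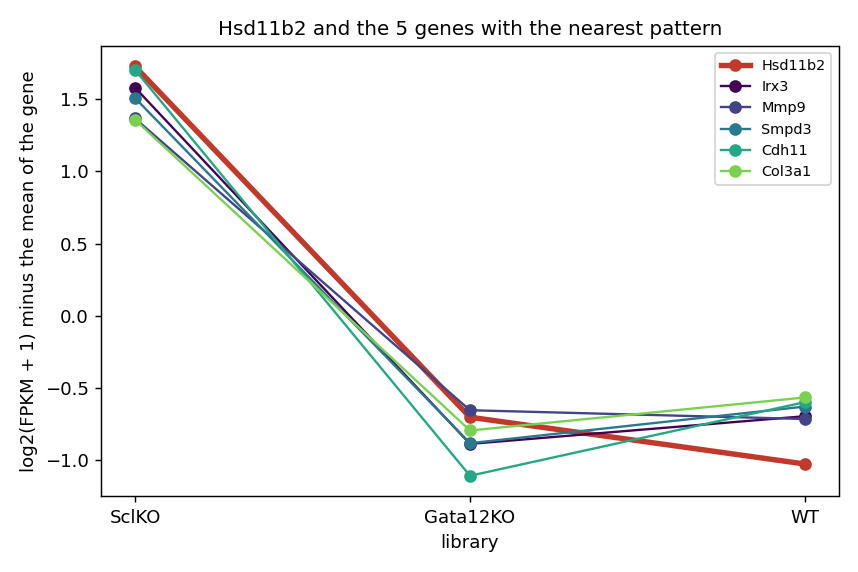
log2(FPKM + 1) minus each gene's mean, for Hsd11b2 (thick red) and the 5 nearest genes, in SclKO, the library labelled Gata12KO and WT. All 6 lines peak in SclKO, and Hsd11b2 and Mmp9 are the ones whose lowest point is WT.

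Of 27 other genes that start within 250 kb of Hsd11b2, 15 were expressed. In SclKO against WT 0 of these were called higher and 0 lower, beside 2.12% and 4.24% of all expressed genes. With shares that low, 0 calls among 15 genes are not read as a trait of the region. Their log2 ratios ran from -0.86 (Ripor1) to 0.94 (Slc9a5), with a median of -0.04. Slc9a5, a sodium-proton exchanger, had 3.75 FPKM in SclKO and 1.48 in WT with separate bounds, which is 2.54-fold before 1 is added to each value. It was called higher with a pseudocount of 0.1, with rescaling over transcripts of 300 nt or longer (together with Plekhg4) and with a 1.5-fold limit. That limit also called Atp6v0d1 and Ripor1 lower. The nearest on either side were Zdhhc1, a palmitoyltransferase whose start lies at -21876 nt (3.91 FPKM in SclKO and 2.37 in WT), and Atp6v0d1, a proton pump subunit whose start lies at 47294 nt (37.7 and 61.4). In the library labelled Gata12KO against WT 0 were higher and 2 lower, beside 0.767% and 3.75% of all expressed genes. The 2 were Tmem208 (36.8 FPKM in the library labelled Gata12KO and 78.4 in WT) and Acd (31.3 and 73.5). Both calls ended as TPM, with the length trend removed and with rescaling over transcripts of 300 nt or longer, and that of Tmem208 also under median-ratio rescaling. The insulator factor gene Ctcf, 117792 nt away, had 43.1 FPKM in SclKO, 36.4 in the library labelled Gata12KO and 42.4 in WT. Genes beyond 250 kb were not surveyed by position. Smpd3, on the same chromosome but outside this window, was called higher in SclKO against WT. It was met through its likeness to Hsd11b2, a choice that favours genes high in SclKO. Its call therefore does not show how often genes beyond 250 kb are called. None of the 7 members overlaps another gene in the files.

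**Figure D5:**
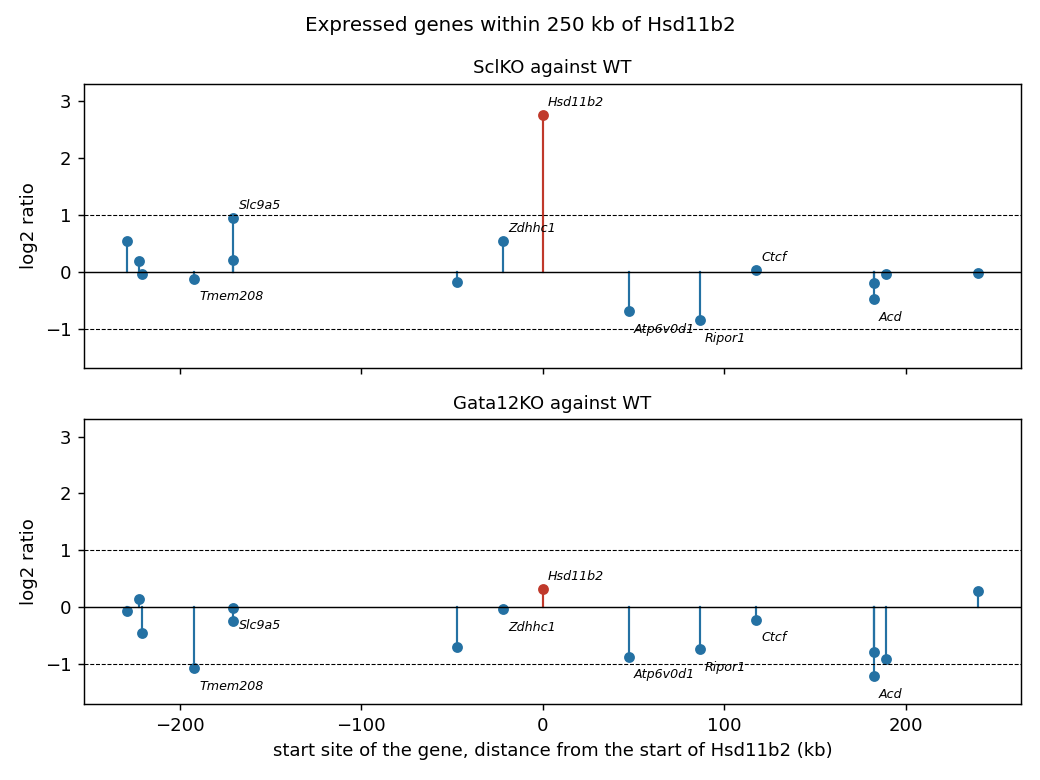
Log2 ratio of each expressed gene that starts within 250 kb of Hsd11b2, against the distance of its start in kb, for SclKO and for the library labelled Gata12KO, both against WT, with dashed lines at 2-fold. Hsd11b2 (red) reaches 2.75 in SclKO, and its 15 expressed neighbours (blue) lie between -0.86 and 0.94.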

How the data were processed

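RNA of 3 sorted libraries, 1 per genotype, was analysed. The authors deposited RefSeq entries with FPKM and its bounds, written by Cufflinks per the file headers' source column, 30123 per file. The submitters' processing notes name TopHat2 2.0.4, Cufflinks 2.0.1 and Cuffdiff, with builds mm9 and hg19, and no roles. Coordinates are those of the files, read as mm9. No source used here says whether strand was used. The other attributes of each entry, of which the authors gave no unit, were not used.

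Accessions were named from the RefSeq gene table (28975 of 29551), then a GENCODE table (173), and 403 stayed unnamed. Entries whose symbol differed between files (134) were left out, none of them a member. FPKM and bounds were summed per symbol in Python 3.11.15 with pandas 2.3.3 and numpy 2.4.6. For entries that share their locus with no other estimated form, the bounds lie 2 Poisson standard deviations from the FPKM, and from those with at least 100 reads the depth was implied (at least 99.3% of fitted entries within 1%). Other bounds can be wider, and no reads were implied for them. FPKM divides by the library total, so 1 abundant class of RNA can shift all other values.

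Members and lists were chosen with earlier results of these data known. Named genes are the members, the targeted genes, up to 4 per list and comparison with the largest ratio, the 5 nearest patterns and genes within 250 kb; further list genes were chosen after their values were seen. The closing section gives 8 alternatives.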

Additional observations from a re-analysis of the deposited data

How the results depend on the processing

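No paired analysis was possible because each group has 1 library, and for the same reason no library could be left out. Under all 8 alternatives Hsd11b2 stayed higher in SclKO against WT (log2 ratio 2.64 to 2.98), and the library labelled Gata12KO stayed lower than SclKO (-2.51 to -1.66), while its ratio to WT was 0.32 to 0.99 and never called. In SclKO against WT 2 members in place of 1 were called with a 1.5-fold limit (Fkbp5 added) and with libraries rescaled to an equal sum over transcripts of 300 nt or longer (Nr3c2 added, -1.25). Against WT, the library labelled Gata12KO had 1 member called, Fkbp5, in place of 0 with a pseudocount of 0.1, median-ratio rescaling, rescaling over 300 nt or longer, TPM over all entries and the 1.5-fold limit, and over the 8 alternatives its log2 ratio was 0.93 to 1.61. Against SclKO, TPM gave 2 in place of 1, again with Fkbp5 (1.04). Ratios that were not called changed sign for Per1 in the library labelled Gata12KO against WT (-0.09 to 0.53), for Nr3c1 there against SclKO (-0.57 to 0.09) and for Hsd11b1, which is near 0. TPM moved the median of all expressed genes to 0.52 in the library labelled Gata12KO against WT, to 0.66 in it against SclKO and to -0.14 in SclKO against WT, and rescaling over 300 nt or longer moved the first to 0.20.

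Over all genes, 705 were called in SclKO against WT (66.7% of them lower), which became 1219 with a pseudocount of 0.1, 2122 with a 1.5-fold limit and 1326 over 300 nt or longer (51.7% lower). For the library labelled Gata12KO against WT 500 (83% lower) became 943, 2079 and 912 (40% lower) under the same changes, 1466 as TPM (8.05% lower) and 328 with the length trend removed (52.7% lower), and median-ratio rescaling gave 449 (71.9% lower). Against SclKO 791 (52.6% lower) became 1285, 2126 and 1404 (40.7% lower), and 2296 as TPM (5.31% lower). The causes were not tested. Nr3c2 rests on 5 to 65 implied reads, and its log2 ratio in SclKO against WT was -2.11 with a pseudocount of 0.1, in place of -0.55.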

Other observations

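Members differed in how far their levels and their entries' shares moved. Per1 had like levels in the 3 libraries, with 2.84 FPKM in SclKO, 3.07 in the library labelled Gata12KO and 3.19 in WT, yet the share of its downstream-start entry was 0.000545%, 0.00955% and 35.4% in the same order. Nr3c2 had separate bounds in all 3 comparisons at levels under 1 FPKM.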
